A study of Mus musculus with 4 samples.

Results

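Transcripts of the mitochondrial respiratory chain and of ATP synthase were followed in cells of the bulge, where the stem cells of the hair follicle reside. Members were protein-coding genes of GENCODE M21 (GRCm38) with the symbol stems Ndufa, Ndufb, Ndufc, Ndufs, Ndufv, Uqcr, Cox4 to Cox8 and Atp5, the genes Sdha to Sdhd, and the mitochondrial genes with the stems mt-Nd, mt-Co, mt-Cytb and mt-Atp. Each had to hold at least 10 counts in each of the 4 libraries. Of 55536 genes in the count table, 107 protein-coding genes carried these symbols and 97 reached the minimum, 87 encoded in the nucleus and 10 in the mitochondrial genome. Of the nuclear members, 76 encode structural subunits, and the rest are 8 Ndufaf assembly factors of complex I, Cox7a2l, Ndufa4l2 and Atp5s. Ndufa4, despite its name, was counted with complex IV, where its protein is placed today.

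The libraries came from skin of C57BL/6 mice, 2 from littermate controls without Cre and 2 from Cdh5CreERT2 mice with both Alk1 alleles floxed. Cdh5CreERT2 is a tamoxifen-activated Cre recombinase under the promoter of an endothelial cadherin, so loss of Alk1 (gene Acvrl1), a receptor of the BMP family, was directed at endothelium and not at the bulge cells themselves. All mice, controls included, received tamoxifen at 100 µg per g of body weight on postnatal day 17 and were sampled on postnatal day 20, and the study asked how loss of endothelial Alk1 affects the follicle stem cells around their activation. Titles give each group mice 1 and 2 without saying whether a library is a single animal or a pool, so p-values measure the spread between these libraries.

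The respiratory chain passes electrons from NADH (complex I) and succinate (complex II) through complex III to complex IV, which reduces oxygen, and complexes I, III and IV pump protons across the inner mitochondrial membrane. Complex V, the ATP synthase, uses the proton gradient to make ATP. Most subunits are encoded in the nucleus and imported, while the mitochondrial genome encodes a few hydrophobic core subunits that are transcribed and translated inside the organelle, and complex II has none of these. Hair follicle stem cells at rest are known for a metabolism that leans on glycolysis.

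Depth ran from 16326906 to 29130974 counts, and 14259 genes passed the filter on low counts, all 97 members among them. Acvrl1 measured 21.6 and 24.3 CPM (counts scaled to effective library size) in the controls and 17.9 and 23.1 in the knockouts, which does not check the labels because the deletion was directed at another cell type. All 10 bulge markers (among them Krt15, Cd34 and Lgr5) were detected, with summed levels between 62903 and 77887 CPM. Most of that sum was Krt15 (29088 to 36017 CPM) and Krt5 (25488 to 31494 CPM). The sum thus says little about the other markers. Markers of interfollicular differentiation (7 of 7 detected, among them Krt1 and Krt10) summed to 16114 and 5223 CPM in the controls and 10389 and 4641 in the knockouts, so control 1 and knockout 1 each held more of them than the second library of their group. Skeletal muscle markers summed to at most 2.49 CPM with Myh4 at 0. Of 5 fat markers 3 were detected, summing to 21.5 and 7.69 CPM in the controls and 12.5 and 7.76 in the knockouts. The fat markers Adipoq and Ucp1 were at 0 in all libraries. In bulk RNA, fewer cells of a type and less RNA per cell cannot be told apart.

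None of the 97 members passed edgeR's quasi-likelihood test at an adjusted p of 0.05, and the smallest adjusted p among them was 0.430. Of all 14259 genes tested, 0.00701% were called higher and 0% lower. DESeq2 called 0 members too, with 0.262% of its 12600 genes with an adjusted p called higher and 0.54% lower, and limma-voom called 0 members. At an unadjusted edgeR p under 0.05, 7 members were higher and 0 were lower in the knockouts, against 4.8% of all tested genes higher and 5.94% lower. Those 7 are Cox4i1, Sdhb, Ndufa6, Uqcrfs1, Cox7a2l, Atp5l and Uqcrh. Picking by p in these same libraries favours genes with close replicates, separate groups and stable values when a library is left out. Counted by groups that do not overlap, both knockouts lay above both controls for 27 of 97 members (27.8%, against 21.3% of all genes) and below them for 5 (5.15%, against 23.6%), namely Ndufb2, Ndufs1, Ndufaf2, Ndufaf8 and Atp5s.

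Fold changes leaned above 0 in every complex but were small. The edgeR log2 fold change (knockout over control) was above 0 for 63 of 76 nuclear subunits (82.9%), with a median of 0.12, and for 10 of 10 mitochondrially encoded members, with a median of 0.35. Over all tested genes 47.5% were above 0 and the median was -0.02. By complex, the nuclear medians were 0.14 for complex I (30 of 36 above 0), 0.12 for complex II (4 of 4), 0.14 for complex III (7 of 8), 0.11 for complex IV (9 of 12) and 0.10 for complex V (13 of 16). The complexes thus lay within a narrow band, and the medians of the nuclear and the mitochondrial genome stood 0.23 apart. After removal of a length and GC trend, 69.7% of nuclear subunits were above 0, with a median of 0.10. Over all genes the share was then 55.6%, with a median of 0.043. The lead of the nuclear subunits over all genes was thus narrower. The transcripts of the nuclear subunits were short, with a median principal length of 737 bases against 2713 over all genes. The trend was fitted on the length of all exons together, with medians of 1696.5 and 4180 bases. The counts above 0 describe the members and carry no test.

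**Figure D1:**
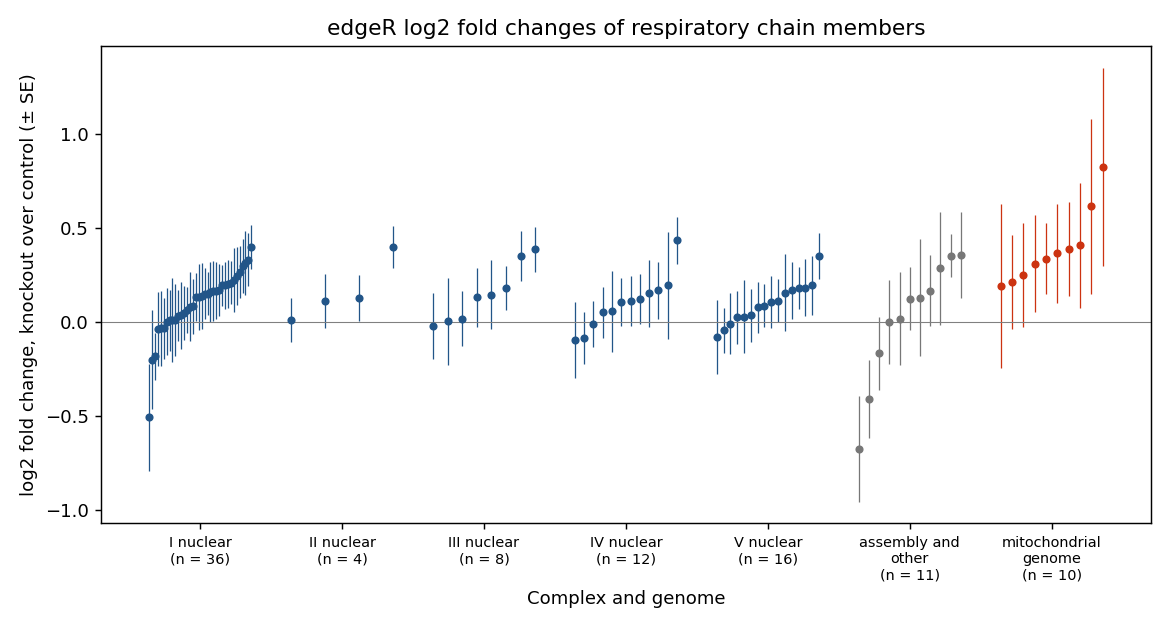
edgeR log2 fold change of each of the 97 members (y axis, with its standard error), sorted within the nuclear subunits of each complex, the assembly factors and other nuclear members, and the mitochondrially encoded members. Most points lie above 0, nuclear subunits run from -0.51 to 0.43, and the 10 mitochondrially encoded members run from 0.19 to 0.82, the widest bars among them.

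The 2 knockout libraries did not share this pattern, and each carried 1 genome's part of it. Knockout 1 was the highest of the 4 libraries for 60 of 76 nuclear subunits and for 0 of 10 mitochondrially encoded members. Knockout 2 was the highest for 10 of 10 mitochondrially encoded members, while it was the highest for 9 nuclear subunits and the lowest for 33. Of all 14259 tested genes, knockout 1 was the highest for 3213. Knockout 2 was the highest for 4264 of them and the lowest for 4354, so it was often an extreme library. As deviations of log2 CPM from each gene's mean over the 4 libraries, the median nuclear subunit stood at -0.09 and -0.03 in controls 1 and 2, 0.17 in knockout 1 and -0.07 in knockout 2. The median mitochondrially encoded member stood at -0.22, -0.08, -0.26 and 0.52 in the same order. The median nuclear subunit thus stood highest in knockout 1 and the median mitochondrial transcript in knockout 2, with the other 3 libraries close together in each case. The 9 nuclear subunits that were highest in knockout 2 were Ndufa10, Ndufa6, Ndufb10, Ndufv3, Ndufv2, Sdhd, Uqcrfs1, Uqcrc2 and Atp5g2, and the others that were not highest in knockout 1 were highest in a control (Ndufa11, Ndufa12, Ndufb2, Ndufs1, Cox5b, Cox8a and Atp5o).

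**Figure D2:**
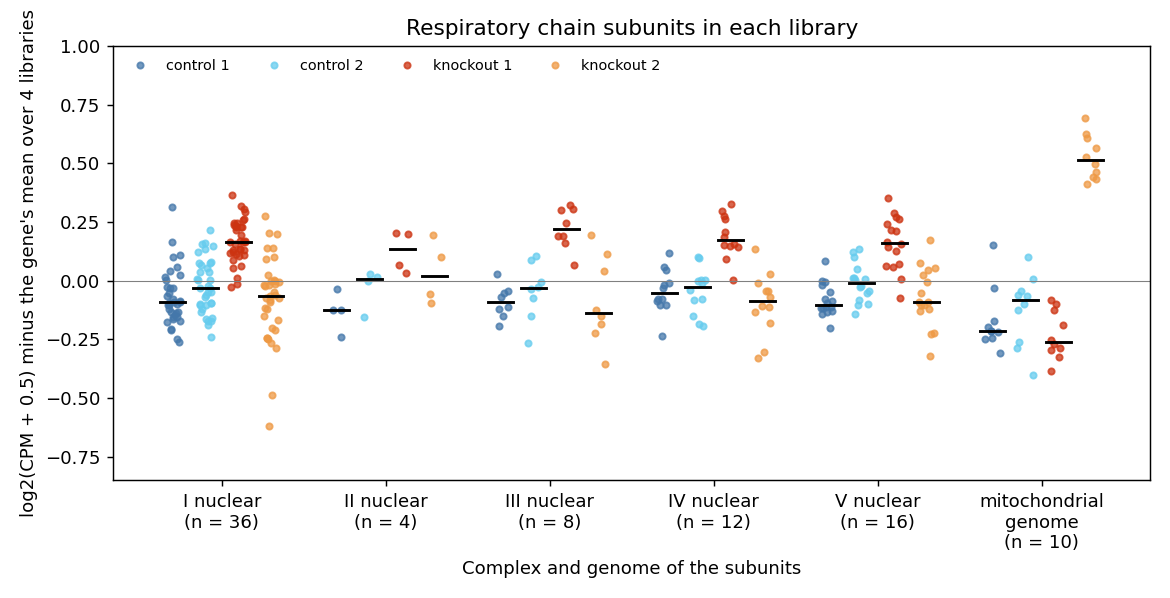
Each point is 1 gene in 1 library, as log2(CPM + 0.5) minus the gene's mean over the 4 libraries (y axis), grouped by complex and genome (x axis), and black bars mark medians. In all 5 nuclear groups knockout 1 (red) has the highest median, and in the mitochondrially encoded group knockout 2 (orange) stands above the other 3 libraries.

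Leaving out a library turned the medians accordingly. Without knockout 1 the nuclear subunits had a median of -0.02 with 33 of 76 above 0, and the medians of complexes III, IV and V were -0.10, -0.03 and -0.02, while the mitochondrially encoded median was 0.64 with 10 of 10 above 0. Without knockout 2 the nuclear median was 0.22 with 71 of 76 above 0, and the mitochondrially encoded median was -0.12 with 4 of 10 above 0. The difference between the genomes was 0.66 without knockout 1 and -0.34 without knockout 2. In that last pair of fits the lone knockout library is assumed to vary like the controls. Without knockout 1 the smallest adjusted p of a member was 0.053, for a mitochondrially encoded gene, and 0 members passed.

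Summed over members, mitochondrially encoded transcripts amounted to 6788 and 7656 CPM in the controls, 6695 in knockout 1 and 11336 in knockout 2. Nuclear subunits summed to 7152 and 7359 CPM in the controls, 8564 in knockout 1 and 7344 in knockout 2. The ratio of the first sum to the second was 0.949 and 1.04 in the controls, 0.782 in knockout 1 and 1.54 in knockout 2, so the controls lay between the 2 knockouts. Markers of endothelium (5 of 5 detected, 2 tested) summed to 8.38 and 4.20 CPM in the controls, 3.95 in knockout 1 and 14.8 in knockout 2, so they too were highest in knockout 2. The part of these cells and of the interfollicular cells in the library pattern was not tested.

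The difference between the 2 knockouts was set against that of all genes. From knockout 1 to knockout 2 the mitochondrially encoded members differed by a median of 0.81 on the log2 scale (10 of 10 upward, from 0.51 to 1.08), the nuclear subunits by -0.26 (67 of 76 downward), and all tested genes by 0.001. For mt-Co1, 6.3% of all tested genes had an upward difference at least as large, for mt-Nd5 3.39% and for mt-Nd1 12.9%. Between the controls the median differences were 0.14 for mitochondrially encoded members and 0.05 for nuclear subunits. The replicates of the knockout group thus stood further apart for these genes than those of the control group.

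The mitochondrial genome itself was read unevenly. mt-Co1, the catalytic subunit of complex IV with its haem-copper centre, measured 4085 and 4603 CPM in the controls and 3935 and 6837 in the knockouts. mt-Nd1, a membrane subunit of complex I, measured 1074 and 1163 CPM in the controls and 1165 and 1658 in the knockouts. mt-Cytb, the cytochrome b of complex III, measured 1011 and 1149 CPM in the controls and 1006 and 1773 in the knockouts. In all 3, knockout 2 stood far above the other libraries, and knockout 1 lay near the controls, below both of them for mt-Co1 and mt-Cytb. The log2 fold changes were 0.31 ± 0.26 for mt-Co1 (edgeR adjusted p = 0.671), 0.34 ± 0.19 for mt-Nd1 (adjusted p = 0.539) and 0.36 ± 0.27 for mt-Cytb (adjusted p = 0.632), each with its SE.

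The other complex I subunits of this genome had lower levels and were also highest in knockout 2. mt-Nd2 measured 209 and 237 CPM in the controls and 192 and 325 in the knockouts. mt-Nd4 measured 226 and 300.0 CPM in the controls and 229.6 and 396 in the knockouts, and mt-Nd5 169 and 191 against 153 and 324. Their log2 fold changes were 0.21, 0.25 and 0.41, and each turned negative without knockout 2. mt-Nd6, the only one of these genes encoded on the opposite strand, measured 8.44 and 9.04 CPM in the controls and 9.33 and 13.6 in the knockouts. Its groups did not overlap, like those of mt-Nd1, and its log2 fold change of 0.39 ± 0.25 did not pass the edgeR test (adjusted p = 0.596). mt-Nd6 (bases 13552 to 14070) overlaps the end of mt-Nd5 (bases 11742 to 13565) on the other strand, and since the strand setting of the counting is not given, reads over that stretch cannot be assigned with certainty.

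Counts were far lower along the middle of the mitochondrial genome, from mt-Co2 to mt-Nd4l. mt-Co2, a complex IV subunit that carries a copper centre, held 45 and 56 counts in the controls and 39 and 71 in the knockouts, where mt-Co1, its neighbour, held 68251, 135919, 85604 and 142757. mt-Atp6, a membrane subunit of ATP synthase, held 12 and 19 counts in the controls and 17 and 34 in the knockouts, just inside the minimum. mt-Co3 held 31 and 39 counts in the controls and 35 and 67 in the knockouts. Just outside the minimum, mt-Nd3 held 7, 14, 14 and 7 counts, and mt-Nd4l and mt-Atp8 held at most 1 count in any library.

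Most of these low genes have near-identical copies in the nuclear genome. Of the 50-base windows of the mt-Co2 transcript 100% were found in an annotated nuclear pseudogene, as were 99.5% for mt-Atp6, 99.9% for mt-Co3, 98% for mt-Nd3 and 98.8% for mt-Nd4l. For mt-Nd1, mt-Nd6 and mt-Cytb the share was 0%, for mt-Nd5 7.61%, for mt-Nd2 8.19%, for mt-Co1 51.1% and for mt-Nd4 62.2%. mt-Atp8 is the exception, with a share of 0% and hardly a count. The copies lie mainly in a block on chromosome 1 (24611535 to 24616197, minus strand), in which unprocessed pseudogenes match mt-Nd4, mt-Nd4l, mt-Nd3, mt-Co3, mt-Atp6, mt-Co2 and part of mt-Co1 in the order of the mitochondrial genome. The copy of mt-Co2 in that block, Gm28661 (24614885 to 24615565), held 33 and 50 counts in the controls and 44 and 46 in the knockouts, close to mt-Co2 itself.

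The following stretch holds bases 441 to 500 of mt-Co2 and the aligned bases of its nuclear copies from GENCODE M21 transcripts. Reads from it cannot be assigned between the first 2 genes. Capitals mark bases of the second copy, Gm13341 on chromosome 2, that differ from mt-Co2.
mt-Co2: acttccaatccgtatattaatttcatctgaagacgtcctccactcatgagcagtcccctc
Gm28661: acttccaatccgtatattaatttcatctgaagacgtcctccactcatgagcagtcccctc
Gm13341: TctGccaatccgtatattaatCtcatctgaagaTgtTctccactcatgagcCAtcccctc
Gm28661 had 0 mismatches to mt-Co2 over this stretch and Gm13341 had 7. The stretch was chosen for the most mismatches of Gm13341 among those compared that still largely matched. Gm28661 shares 99.5% of the mt-Co2 windows and Gm13341 35.3%. The treatment of reads that fit several places is a step not given in these sources, and its part in the low counts was not tested. Levels and fold changes of mt-Co2, mt-Co3 and mt-Atp6 (0.19 ± 0.44, 0.61 ± 0.46 and 0.82 ± 0.53 on the log2 scale) are therefore uncertain. The 5 mitochondrially encoded members with under 50% of shared windows had a median log2 fold change of 0.36. It was 0.63 without knockout 1 and -0.10 without knockout 2, so it too rested on knockout 2.

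**Figure D3:**
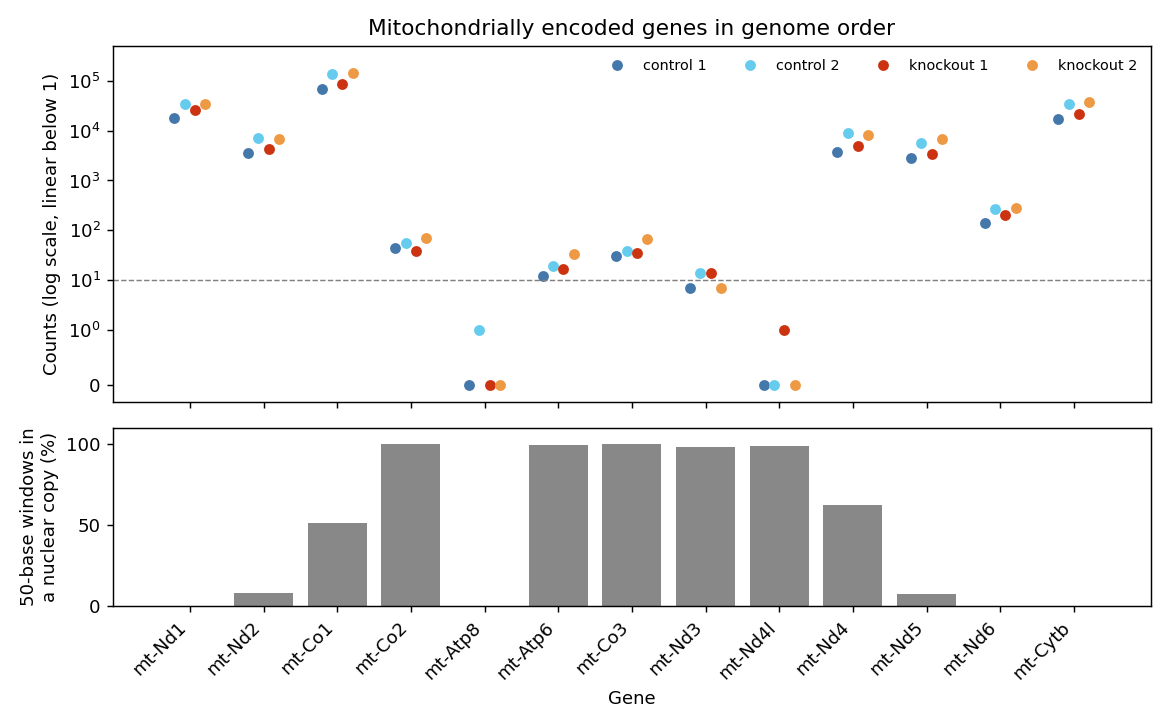
Counts of each mitochondrially encoded gene in each library in genome order (upper panel, log scale that is linear below 1, dashed line at the minimum of 10), above the share of each gene's 50-base windows found in an annotated nuclear pseudogene (lower panel, percent). Genes from mt-Co2 to mt-Nd4l hold at most 71 counts while mt-Co1 reaches 142757, and all of them but mt-Atp8 have shares of 98% or more.

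The ribosomal RNAs of the same genome, which are not members, gave 406 and 469 CPM for mt-Rnr2 in the controls and 609 and 1004 in the knockouts (log2 fold change 0.88 ± 0.24, edgeR adjusted p = 0.430). mt-Rnr1 gave 426 and 541 CPM in the controls and 477 and 753 in the knockouts. Knockout 2 was again the highest library for both, and for mt-Rnr2 knockout 1 also lay above the controls. The libraries were selected for polyA.

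Levels per transcript length differed between the complexes, in an order that depended on the length taken. Mean CPM per kb of the principal transcript over the 4 libraries had a median of 60.3 over the nuclear subunits of complex I, 52.5 over complex II, 116 over complex III, 130.3 over complex IV and 135 over complex V. Within complex I the level ran from 22.0 for Ndufb4 to 204 for Ndufa11, both accessory subunits. In complex V it ran from 27.7 for Atp5o, the stalk subunit that links the catalytic head to the stator, to 421 for Atp5b, the catalytic beta subunit. mt-Co1 at 3149, mt-Nd1 at 1322 and mt-Cytb at 1079 CPM per kb stood above every nuclear subunit, and mt-Nd6 at 19.4 below all but Cox6b2 with these lengths. With the length of all exons together in place of the principal transcript, the nuclear medians were 31.7 for complex I, 42.7 for complex II, 67.4 for complex III, 60.7 for complex IV and 41.3 for complex V, so complex V went from the highest median to below complex II. Of the 2 highest genes, 1 was then another in complexes I, II and III, while Ndufa11, Sdhb and Uqcrh stayed among them.

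**Figure D4:**
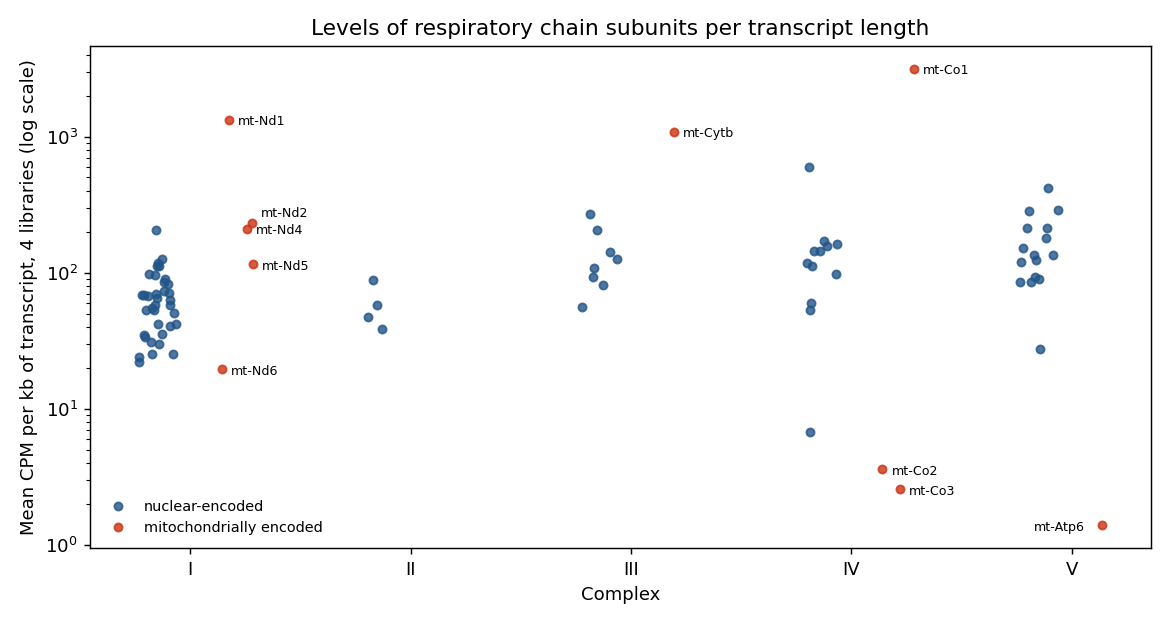
Mean CPM per kb of principal transcript over the 4 libraries (y axis, log scale) for each structural subunit, by complex (x axis) and genome (blue nuclear, red mitochondrial). With these lengths nuclear subunits of complexes III, IV and V lie mostly above those of complexes I and II, while the mitochondrially encoded ones span from 1.38 (mt-Atp6) to 3149 (mt-Co1).

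Complex I, which oxidises NADH, is the largest of the complexes. Its 7 nuclear core subunits, which hold the flavin and the iron-sulfur clusters, had a median log2 fold change of 0.17 with 5 above 0, and its 29 accessory subunits one of 0.13 with 25 above 0. Ndufa6, an accessory subunit of the peripheral arm, measured 62.1 and 58.5 CPM in the controls and 79.2 and 79.7 in the knockouts. The 2 knockouts were alike here and both above the controls, with a log2 fold change of 0.40 ± 0.12 (edgeR adjusted p = 0.430), and the value ran from 0.38 to 0.44 with any library left out. Ndufv2, a core subunit with an iron-sulfur cluster, measured 56.6 and 64.7 CPM in the controls and 70.5 and 82.1 in the knockouts (0.33 ± 0.14, adjusted p = 0.465). Ndufv2, Ndufs1 and Ndufv1 were picked for mention with their values known.

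Against this direction, Ndufb2, an accessory subunit of the membrane arm, measured 13.3 and 12.4 CPM in the controls and 11.4 and 6.75 in the knockouts. Its log2 fold change was -0.51 ± 0.29 (edgeR adjusted p = 0.539) and -0.18 without knockout 2. Ndufs1, the core subunit with the most iron-sulfur clusters, measured 81.3 and 89.1 CPM in the controls and 79.2 and 71.0 in the knockouts (-0.18 ± 0.13, adjusted p = 0.613), while Ndufv1, the flavin subunit, measured 139 and 138 against 159 and 157 (0.19 ± 0.11, adjusted p = 0.540). Core subunits of the same NADH-oxidising module thus lay on either side of 0, and none passed. Of the most abundant subunits per length, Ndufa11 measured 98.0 and 124 CPM in the controls and 121 and 102 in the knockouts, with fully overlapping groups (0.01 ± 0.16), and Ndufb10 77.1 and 96.9 against 90.0 and 105 (0.16 ± 0.16).

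Among the other accessory subunits of complex I, both knockouts lay above both controls for Ndufa2, Ndufa8, Ndufa10, Ndufb8, Ndufb11, Ndufc2 and Ndufv3. With Ndufa6 these were 8 of 29 accessory subunits (27.6%), against 21.3% of all genes. Ndufb2 was the 1 accessory subunit with both knockouts below both controls (3.45%, against 23.6% of all genes). Ndufc2, of the membrane arm, measured 57.0 and 59.0 CPM in the controls and 83.1 and 61.1 in the knockouts (0.31 ± 0.17, edgeR adjusted p = 0.531), and Ndufb11, also of the membrane arm, 93.6 and 88.2 against 124 and 99.5 (0.30 ± 0.14, adjusted p = 0.496). In both, knockout 1 stood well above the other libraries and knockout 2 only just above the controls. Ndufc1, a small subunit of the same arm, measured 19.3 and 19.6 CPM in the controls and 21.2 and 12.6 in the knockouts (-0.20 ± 0.26), with the knockouts on either side of the controls.

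The 8 Ndufaf assembly factors, which help build complex I without staying in it, had a median of 0.07 with 5 above 0. Ndufaf2 measured 7.06 and 9.31 CPM in the controls and 5.84 and 4.45 in the knockouts. Both knockouts lay below both controls, and its log2 fold change of -0.67 ± 0.28 did not pass the edgeR test (adjusted p = 0.464). Ndufaf4 measured 8.08 and 8.23 CPM in the controls and 12.5 and 7.33 in the knockouts, so its 0.29 ± 0.30 rested on knockout 1 (-0.16 without it).

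Complex II, succinate dehydrogenase, also belongs to the tricarboxylic acid cycle and has nuclear subunits only. Sdhb, which carries its iron-sulfur clusters, measured 84.1 and 89.4 CPM in the controls and 114 and 114 in the knockouts. The knockouts were alike and above the controls, with a log2 fold change of 0.40 ± 0.11 (edgeR adjusted p = 0.430; 0.35 to 0.46 with any library left out). Its partner Sdha, the flavin subunit that oxidises succinate, measured 163 and 170.2 CPM in the controls and 175 and 160.5 in the knockouts, with overlapping groups (0.01 ± 0.12, adjusted p = 0.977). The membrane anchors Sdhc and Sdhd had log2 fold changes of 0.11 and 0.13.

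Complex III, the cytochrome bc1 complex, gave 2 of the 7 members with the smallest p. Uqcrfs1, the Rieske iron-sulfur protein, measured 69.1 and 62.5 CPM in the controls and 85.9 and 86.1 in the knockouts (0.39 ± 0.12, edgeR adjusted p = 0.430). Uqcrh, the hinge protein, measured 128 and 132 CPM in the controls and 181 and 151 in the knockouts (0.35 ± 0.13, adjusted p = 0.441). For Uqcrfs1 the knockouts were level with each other, and for Uqcrh knockout 1 stood out. Uqcrc1, a core protein, measured 315 and 339 CPM in the controls and 404 and 312 in the knockouts, and Uqcr10, a small subunit, 38.7 and 42.6 against 45.9 and 34.2. In both, knockout 1 was the highest library and knockout 2 the lowest, which left log2 fold changes of 0.13 ± 0.16 and -0.02 ± 0.18.

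Complex IV, cytochrome c oxidase, had the largest nuclear value. Cox4i1, the widely expressed isoform of subunit 4, measured 374 and 385 CPM in the controls and 541 and 485 in the knockouts. Both knockouts lay above both controls, with a log2 fold change of 0.43 ± 0.12 (edgeR adjusted p = 0.430) that was 0.35 without knockout 1 and 0.51 without knockout 2. It was also the nuclear subunit with the highest level per length, with 502, 517, 726 and 651 CPM per kb in controls 1 and 2 and knockouts 1 and 2. Cox5a, which binds next to it in the complex, measured 37.0 and 34.0 CPM in the controls and 39.4 and 27.0 in the knockouts (-0.10 ± 0.20, adjusted p = 0.874), with the knockouts on either side of the controls. Cox6b1, a subunit facing the intermembrane space, measured 100.0 and 100.0 CPM in the controls and 127 and 98.1 in the knockouts (0.17 ± 0.15).

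The remaining nuclear subunits of complex IV showed narrow differences. Cox5b, which binds zinc, measured 79.1 and 89.8 CPM in the controls and 84.3 and 83.3 in the knockouts (-0.01 ± 0.12), with both knockouts between the controls. Cox6c measured 90.3 and 92.6 CPM in the controls and 108 and 90.8 in the knockouts (0.12 ± 0.13), Cox7b 55.1 and 59.1 against 65.9 and 57.3 (0.11 ± 0.13) and Cox7c 75.4 and 76.5 against 86.0 and 71.3 (0.05 ± 0.14). In these 3 small subunits only knockout 1 lay above both controls.

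Several complex IV subunits exist as isoforms bound to particular tissues, and the bulge libraries held nearly only the common ones. Cox6a2, the heart and muscle isoform of Cox6a1, and Cox7b2 held 0 counts in all 4 libraries, Cox8b and Cox8c at most 1, Cox4i2 3 and 5 counts in the controls and 0 and 0 in the knockouts, and Cox7a1 5 and 2 against 7 and 0. Their common counterparts Cox6a1, Cox8a and Cox7a2 measured between 69.7 and 115 CPM. Cox6b2, the testis isoform, reached the minimum of counts at 3.65 and 3.29 CPM in the controls and 4.14 and 3.78 in the knockouts, which per length was 4.08%, 3.67%, 3.65% and 4.31% of Cox6b1 in the order control 1, control 2, knockout 1, knockout 2. Ndufa4l2, a paralogue of Ndufa4 known as a hypoxia target, stood at 22.1%, 20.2%, 25.1% and 23.5% of Ndufa4 per length in the same order. The groups overlapped for Cox6b2, whereas for Ndufa4l2 both knockouts lay above both controls in this share.

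Cox7a2l, a relative of Cox7a2, measured 215 and 215 CPM in the controls and 276 and 273 in the knockouts. Its log2 fold change of 0.35 ± 0.11 (edgeR adjusted p = 0.430) had the narrowest range of the 7 members with any library left out, 0.34 to 0.37. The 7 were picked by p in these same libraries, which favours narrow ranges. Cox7a2 itself measured 71.8 and 77.4 CPM in the controls and 85.7 and 74.9 in the knockouts (0.11 ± 0.13), with knockout 2 between the controls. Per length Cox7a2l stood at 183% and 170.0% of Cox7a2 in the controls and 197.5% and 223% in the knockouts.

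**Figure D5:**
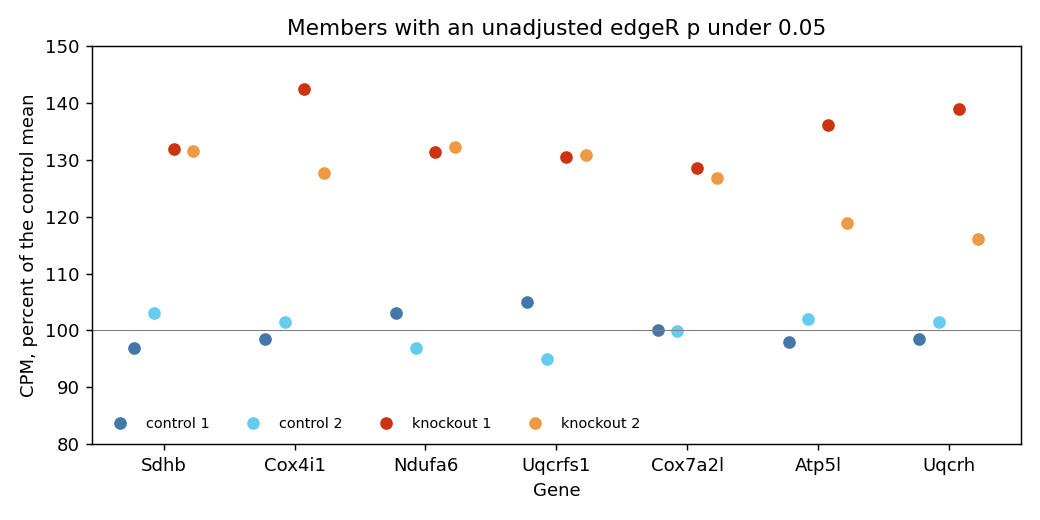
CPM of the 7 members with an unadjusted edgeR p under 0.05, as percent of the gene's control mean (y axis, which does not start at 0), 1 point per library. All knockout points lie above all control points, a separation that picking by p in these same libraries favours. The 2 knockouts are level for Sdhb, Ndufa6, Uqcrfs1 and Cox7a2l, whereas knockout 1 is the higher for Cox4i1, Atp5l and Uqcrh.

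Complex V, the ATP synthase, held the nuclear members with the highest CPM before division by length. Atp5b measured 802 and 792 CPM in the controls and 898 and 735 in the knockouts, and Atp5a1, the alpha subunit that alternates with it in the head, 693 and 703 against 802 and 672. In both, knockout 1 was the highest library and knockout 2 the lowest, so the log2 fold changes were 0.03 ± 0.14 and 0.08 ± 0.14. The 5 members of the F1 head had a median of 0.08 with 5 above 0, and knockout 1 was the highest library for 5 of 5. Atp5l, the g subunit of the membrane part, measured 100.3 and 104 CPM in the controls and 139 and 122 in the knockouts (0.35 ± 0.12, edgeR adjusted p = 0.431). The 4 nuclear subunits of the membrane part had a median of 0.18 and the 4 of the stalk one of 0.10. Atp5s, a regulatory factor, measured 11.1 and 11.9 CPM in the controls and 9.24 and 8.05 in the knockouts (-0.41 ± 0.21, adjusted p = 0.513).

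In the stalk, which holds the head in place, Atp5f1 measured 134 and 143 CPM in the controls and 149 and 145 in the knockouts (0.09 ± 0.11), and Atp5j 92.7 and 101 against 105 and 104 (0.11 ± 0.11). Their groups did not overlap although the differences were no larger than their standard errors. Atp5o measured 21.0 and 25.4 CPM in the controls and 23.2 and 23.0 in the knockouts (-0.01 ± 0.16), both knockouts lying between the controls. In the head, Atp5c1, the central gamma subunit, measured 148 and 145 CPM in the controls and 170.2 and 162 in the knockouts (0.18 ± 0.11, edgeR adjusted p = 0.579). Both knockouts lay above both controls there, unlike for Atp5a1 and Atp5b.

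The rotating c ring is made from 3 nuclear genes that encode the same mature protein. Atp5g1 measured 57.2 and 63.1 CPM in the controls and 67.4 and 46.3 in the knockouts, Atp5g2 61.6 and 67.1 against 63.3 and 75.1, and Atp5g3 151 and 157 against 158 and 141. Knockout 2 was the lowest library for Atp5g1 and Atp5g3 and the highest for Atp5g2. Of their summed level per length, Atp5g2 made up 32.1% and 32.9% in the controls, 31.0% in knockout 1 and 39.2% in knockout 2, and Atp5g1 19.0%, 19.7%, 21.1% and 15.4%. Their log2 fold changes of -0.08 ± 0.20, 0.10 ± 0.14 and -0.04 ± 0.12 did not pass the edgeR test (adjusted p = 0.891, 0.789 and 0.902).

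Promoters of nuclear members were searched because many respiratory genes are known targets of the factors NRF1, GABP (an ETS factor) and YY1. Of the nuclear members, 71 matched the RefSeq promoter table (GRCm38.p6), with 76 promoters of 250 bases before to 50 after the start. Searched on both strands, the NRF1 motif (GCGCA, any base, then GCGC) was in 26.3% of member promoters against 4.6% of all 32851 promoters. The ETS motif CCGGAAG was in 23.7% against 8.86%, and the YY1 motif AAGATGGC in 13.2% against 2.75%. Member promoters also had more G and C (a median of 58.5% against 52.7%). Members had to hold counts in every library, while the 32851 promoters were taken without regard to expression. The part of base composition and of expression in these shares was not tested.

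The 3 members below hold both an NRF1 and an ETS match in the 150 bases before their start, printed in the direction of transcription and taken from RefSeq (GRCm38.p6), with the matches in capitals. They show where the matches lie, in subunits of complexes V, IV and II on chr11:115419920-115420069, chr5:115348959-115349108 and chr9:50603850-50603999, all on the minus strand.
Atp5h: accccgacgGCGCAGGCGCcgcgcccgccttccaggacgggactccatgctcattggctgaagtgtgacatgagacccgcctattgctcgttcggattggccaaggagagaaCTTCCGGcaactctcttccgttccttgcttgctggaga
Cox6a1: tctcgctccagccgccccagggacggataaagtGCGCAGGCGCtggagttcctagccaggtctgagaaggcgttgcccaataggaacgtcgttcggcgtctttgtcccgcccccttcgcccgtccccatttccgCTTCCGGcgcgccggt
Sdhd: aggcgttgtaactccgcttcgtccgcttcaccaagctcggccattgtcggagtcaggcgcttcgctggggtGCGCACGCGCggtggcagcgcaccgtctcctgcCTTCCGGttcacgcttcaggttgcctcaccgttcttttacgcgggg
In these stretches the ETS motif reads as its reverse complement. Atp5h measured 165 and 165 CPM in the controls and 211 and 164 in the knockouts, Cox6a1 95.6 and 86.5 against 115 and 74.2, and Sdhd 53.4 and 58.2 against 59.6 and 62.5. The first 2 were highest in knockout 1 and lowest in knockout 2, and Sdhd was highest in knockout 2. Among the 7 members with the smallest p, Ndufa6 held an NRF1 match, Atp5l, Sdhb and Uqcrh held ETS matches, and Cox7a2l and Uqcrfs1 held none of the 3 motifs. Cox4i1 was not matched to the promoter table.

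Nrf1 measured 37.9 and 39.6 CPM in the controls and 37.3 and 37.0 in the knockouts, Gabpa 59.6 and 58.9 against 62.2 and 53.5, and Yy1 126 and 119 against 119 and 140.4. Their log2 fold changes were -0.06, -0.03 and 0.08. The partner subunits of Gabpa in GABP lay below both controls in both knockouts without passing, Gabpb1 with 20.4 and 18.4 CPM against 17.7 and 12.6 (-0.35 ± 0.22, edgeR adjusted p = 0.579) and Gabpb2 with 113 and 119 against 96.0 and 107 (-0.19 ± 0.12, adjusted p = 0.569). Tfam, which packages and transcribes mitochondrial DNA, measured 35.0 and 32.9 CPM in the controls and 35.8 and 35.6 in the knockouts (0.07 ± 0.13, edgeR adjusted p = 0.843).

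The rest of the energy metabolism was read from 8 further lists, in which 0 genes were called by edgeR. Mitochondrial import and cristae genes had a median log2 fold change of 0.22 with 22 of 28 tested above 0, among them Tomm20, an import receptor (0.41 ± 0.14), while Hspa9, the matrix chaperone, gave -0.05 ± 0.12. Uncoupling and adenine nucleotide transport genes had a median of 0.16 (7 of 9), with Slc25a5, an ADP/ATP carrier, at 0.33 ± 0.12 and Slc25a3, the phosphate carrier, at 0.05 ± 0.12. Assembly factors outside the Ndufaf group had a median of 0.09 (31 of 46), tricarboxylic acid cycle genes 0.08 (19 of 23), glycolysis genes 0.07 (11 of 18) and genes of mitochondrial DNA expression 0.04 (17 of 29). Electron carriers (10 of 21) and nuclear regulators of mitochondrial genes (5 of 18) had medians of -0.04 and -0.05. Of the most abundant genes of these lists, Etfa and Cyc1 (electron carriers) gave 0.23 and 0.03, Atpif1 and Acad9 (assembly factors) 0.07 and -0.13, and Pdha1 and Ogdh (pyruvate dehydrogenase and the cycle) 0.07 and -0.20. Polg, the mitochondrial DNA polymerase, gave -0.15 and Sp1, a general transcription factor, -0.13.

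Single genes of these lists had an unadjusted edgeR p under 0.05 without passing. Over all tested genes 4.8% were higher and 5.94% lower at that p. The higher ones were Uqcc3 of 46 assembly factors, and Grsf1 and Hsd17b10 of 29 genes of mitochondrial DNA expression. Also higher were Pdk4 of 23 in the tricarboxylic acid list, Tomm20, Phb2 and Timm50 of 28 in import and cristae, and Slc25a5 of 9 in transport. Nrip1, of 18 regulators, was the lower one. Electron carriers (0 of 21) and glycolysis genes (0 of 18) held none. Grsf1, an RNA-binding protein of mitochondrial RNA granules, measured 67.0 and 62.9 CPM in the controls and 76.3 and 97.8 in the knockouts (0.42 ± 0.15, edgeR adjusted p = 0.434). Knockout 2 was the highest library for Grsf1. Of the 29 tested genes of mitochondrial DNA expression, 9 were highest in knockout 2 and 11 in knockout 1. Over all 14259 tested genes, 4264 were highest in knockout 2. Nrip1, a corepressor of oxidative metabolism, measured 35.6 and 31.7 CPM in the controls and 21.9 and 24.0 in the knockouts (-0.55 ± 0.15, adjusted p = 0.430). Pdk4, the kinase that shuts pyruvate dehydrogenase, measured 2.93 and 1.80 CPM in the controls and 3.13 and 13.5 in the knockouts, a log2 fold change of 1.83 ± 0.69 (adjusted p = 0.441) that came from knockout 2. Pkm and Aldoa, the most abundant glycolysis genes, gave 0.11 ± 0.17 and 0.08 ± 0.14.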

How the data were processed

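RNA was sequenced from 4 libraries of bulge cells. The authors deposited a table of raw counts for 55536 genes. Per the submitters' processing notes, Trim Galore 0.6.0, cutadapt, FastQC, STAR 2.7.0e and DESeq2 1.26.0 were used with GRCm38 (mm10). How reads were assigned to genes (program, strandedness, release of the annotation) was not given in the sources used here. Counts of overlapping genes and of genes with near-identical copies are uncertain for that reason. GENCODE M21 held all 55536 identifiers.

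In R 4.3.3, edgeR 4.0.16 (filterByExpr, TMM, robust quasi-likelihood fit, no covariates) compared 2 knockout with 2 control libraries over 14259 genes, with Benjamini-Hochberg adjustment over all of them and a threshold of 0.05. With 2 libraries against 2, an exact two-sided permutation test of a single value cannot go below 0.333, and none was used. Errors after ± are standard errors of the fit. Log2 CPM used a prior count of 2. Levels per length used the lengths of APPRIS principal transcripts. The length and GC trend used the length of all exons together and the GC of the longest transcript. Nuclear copies were found as shared 50-base windows of annotated transcripts. The test was checked on simulated counts. Replicates were not duplicates (chi-square per degree of freedom 34.5 for the controls, 45.7 for the knockouts).

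The members and lists were chosen with earlier results of these data known. Named were all mitochondrially encoded members, per complex the 2 nuclear subunits of highest level per length and those of largest and smallest fold change with a mean of at least 2 CPM, the isoform groups, the extreme Ndufaf factors, and per list the 2 genes of highest mean. Other named genes were chosen after their values were seen. Alternatives were RLE and upper-quartile normalization, scaling without mitochondrial genes, other filters (none, or 50 counts in 2 libraries), DESeq2 1.42.0, limma-voom (limma 3.58.1), a replicate block, removal of a length and GC trend (splines with 4 degrees of freedom), and each library left out. Levels over union exon lengths, and mitochondrial genes under 50% shared windows, were added after seeing the data.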

Additional observations from a re-analysis of the deposited data

How the results depend on the processing

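With 2 libraries per group, 1 gene was called higher and 0 lower over all genes, and 0 members in any setting. The counts over all genes moved to 163 higher and 267 lower without a filter and 33 and 68 with DESeq2, to 2 higher after removal of the length and GC trend, and ran from 1 to 39 higher and 0 to 26 lower with 1 library left out. The cause was not tested.

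With the replicate number as a block, 25 genes were higher and 81 lower, and 0 members were called. The labels do not say that numbers pair the mice. The deviations of control 1 and knockout 1 from their group means correlated at r = 0.122 over 14259 genes, and genes are not independent replicates. The medians under the block were 0.12 for nuclear subunits and 0.31 for mitochondrially encoded members, and it changed no call of a member.

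With 1 library left out, the median log2 fold changes ran from -0.017 to 0.22 for nuclear subunits, from -0.12 to 0.64 for mitochondrially encoded members and from -0.34 to 0.66 for their difference. By complex they ran from 0.011 to 0.22 (I), 0.057 to 0.21 (II), -0.10 to 0.31 (III), -0.026 to 0.23 (IV) and -0.017 to 0.19 (V). Under all other settings these medians moved by less than the spread between replicates. The median over all genes, though, moved from -0.02 to 0.043 after removal of the length and GC trend. Over all exons, an alternative chosen after seeing the data, the median CPM per kb was 31.7, 42.7, 67.4, 60.7 and 41.3 for the nuclear subunits of complexes I to V, against 60.3, 52.5, 116, 130.3 and 135 over principal transcripts.

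Signs of single members turned with 1 library left out, over these ranges: Atp5a1 -0.059 to 0.20, Atp5b -0.12 to 0.17, Atp5g1 -0.38 to 0.17, Atp5g2 -0.023 to 0.22, Atp5g3 -0.13 to 0.036, Cox5a -0.40 to 0.15, Cox6a1 -0.30 to 0.34, Cox6b1 -0.031 to 0.34, Cox8a -0.23 to 0.046, Ndufa4 -0.071 to 0.34, Ndufaf4 -0.16 to 0.62, Sdha -0.056 to 0.073, Uqcr10 -0.25 to 0.17, Uqcrc1 -0.070 to 0.31, mt-Co1 -0.14 to 0.65, mt-Co2 -0.34 to 0.58, mt-Cytb -0.10 to 0.71, mt-Nd2 -0.21 to 0.54, mt-Nd4 -0.20 to 0.59, mt-Nd5 -0.23 to 0.85 and Ndufa11 -0.15 to 0.21. Ndufa11 was also at -0.0021 with the filter of 50 counts and at -0.033 after that trend was removed. Without that trend 53 of 76 nuclear subunits were above 0, as were 55.6% of all genes.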
